A study of Caenorhabditis elegans with 24 samples.

Results

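The genes described here encode subunits and assembly factors of the mitochondrial respiratory chain and ATP synthase of Caenorhabditis elegans. They were chosen by gene symbol alone: the nuo-, nduf-, sdha-, sdhb-, sdhd-, ucr-, cyc-, cox-, atp-, asb- and asg- families together with gas-1, isp-1, mev-1, lpd-5 and hpo-18. This gave 49 of the 17118 genes read by the array, and 47 of them were bright enough to be tested, as were 12277 genes in all. The 2 left out, the cytochrome c gene cyc-2.2 and the heme synthesis gene cox-10, did not exceed log2 4, the floor of the test, on any array. By role there were 13 genes of complex I, 5 of complex II, 6 of complex III, 2 of cytochrome c, 7 subunits and 6 assembly factors of complex IV, and 10 genes of ATP synthase.

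RNA of whole wild-type N2 worms was hybridised to 24 Affymetrix arrays, 1 sample each. All worms were kept at 20 °C on bacteria for RNA interference (RNAi), feeding of double-stranded RNA that lowers a chosen transcript, and were harvested at day 4 of adulthood. The RNAi was a control, or targeted Rheb, a GTPase upstream of TOR, or the TOR kinase itself, which promotes growth when food is plentiful. On each RNAi the worms fed freely or were fasted for 48 h, which made 6 groups: 5 fed and 5 fasted arrays on control RNAi, 4 and 4 on Rheb RNAi, and 3 and 3 on TOR RNAi. The labels call the samples of a group biological replicates, and the worms of a sample were pooled, with their number not given in the labels. Values are log2 intensities, changes are differences of group means with their standard error (SE). The words "rose" and "fell" stand for changes with limma's adjusted p under 0.05 over all genes tested. A probe set's brightness depends on its sequence, so levels are compared between groups and never between genes.

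The respiratory chain passes electrons from NADH, at complex I, and from succinate, at complex II, through coenzyme Q, complex III and cytochrome c to oxygen at complex IV, and complexes I, III and IV pump protons as they do so. ATP synthase lets the protons back and makes ATP. Most subunits are encoded in the nucleus, as all genes described here are, and a few in mitochondrial DNA; transcripts of the latter were not analysed here. In this worm, lowering several of these genes early in life slows growth and lengthens life, and mutants of isp-1, gas-1, mev-1 and nuo-6 are widely used models of altered respiration.

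Averaged over the 47 genes, fed control worms had the lowest levels of these transcripts. Expressed as the deviation from each gene's mean over the 24 arrays and averaged over the 47 genes, the fed control arrays lay at -0.39 to -0.18 and the fasted control arrays at -0.04 to 0.13. The fed arrays were at -0.01 to 0.06 on Rheb RNAi and at -0.08 to -0.02 on TOR RNAi. The fasted arrays were at 0.08 to 0.17 on Rheb RNAi and at 0.12 to 0.19 on TOR RNAi. Thus all 5 fed control arrays lay below all 19 others. The range of fasted control overlapped that of every knockdown group, fed and fasted. On each knockdown all fasted arrays lay above all fed arrays. Fed control was the lowest of the 6 group means for 33 of the 47 genes, against 31.8% of all genes tested. Fed TOR RNAi was the lowest for 9, against 18.7%. Fasted TOR RNAi was the highest for 25 genes, against 24.8% of all genes. By complex, complex II was lowest in fed TOR RNAi, at a mean deviation of -0.27 against -0.15 in fed control. The assembly factors of complex IV were lowest in fed Rheb RNAi, at -0.11 against -0.01. In whole-worm RNA, fewer cells of a type and less RNA per cell cannot be told apart.

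**Figure D1:**
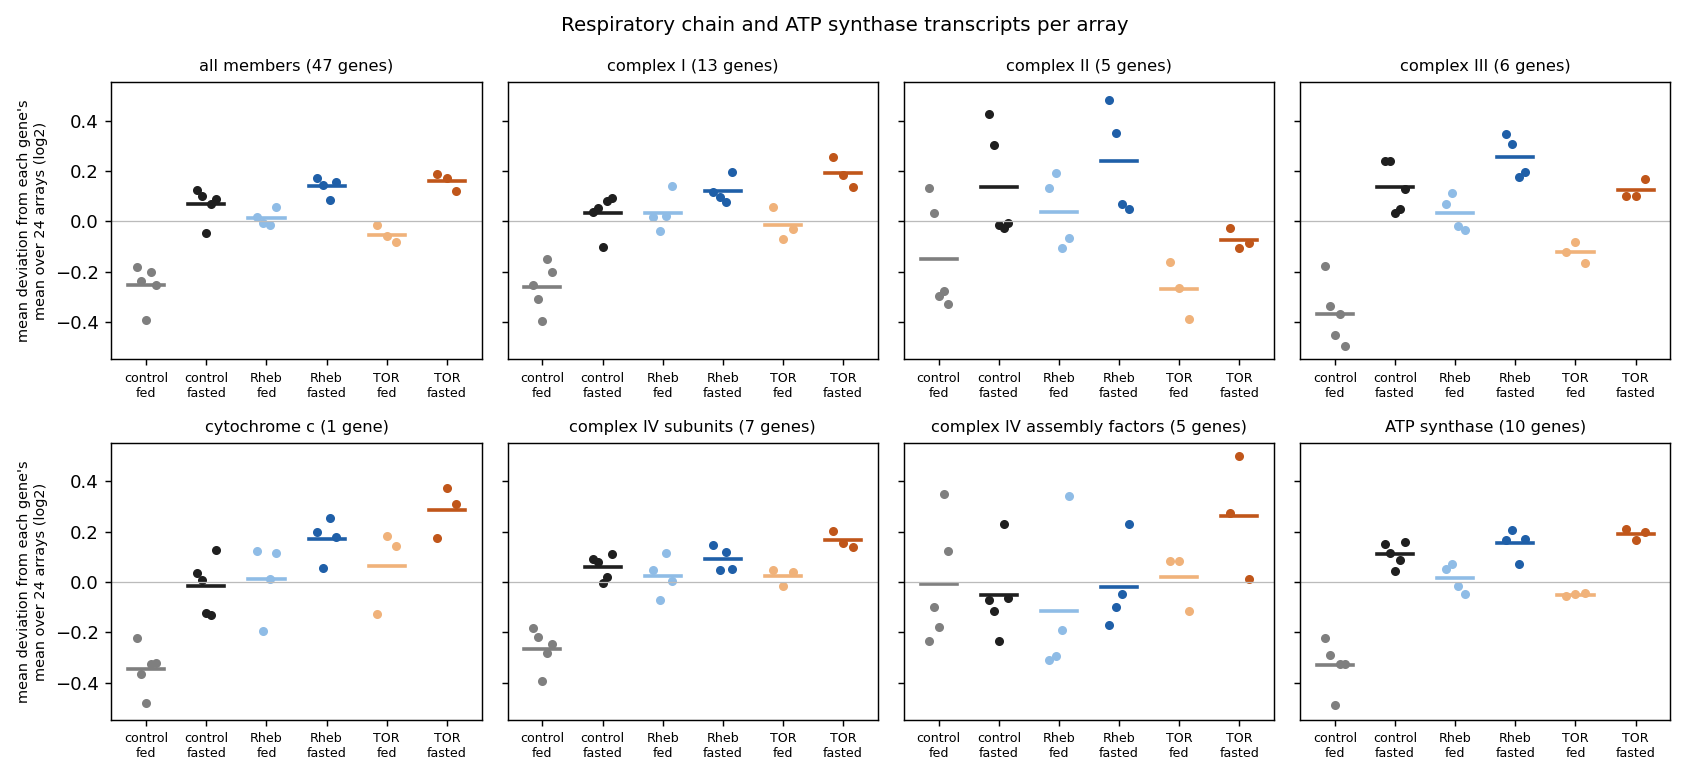
Each point is 1 array: the mean over the named genes of the log2 deviation from each gene's mean over 24 arrays, for all 47 genes and for each complex, with group means as bars and the 6 groups on the x axis. Over all genes the 5 fed control arrays sit at -0.39 to -0.18, below the other 19 arrays.

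Both RNAi targets fell on their own RNAi by at least 1 probe set. On TOR RNAi the TOR gene let-363 changed by -1.45 ± 0.14 (SE) in fed worms and by -1.44 ± 0.14 when fasted, by its brighter probe set. On Rheb RNAi 1 probe set of rheb-1 changed by -2.55 ± 0.28 in fed worms and by -1.85 ± 0.28 when fasted, while the other was at -0.30 and -0.50 and not called (limma's adjusted p = 0.35 and 0.15). The 3' to middle signal ratio of the control transcripts on each array, a measure of RNA quality, was 0.84 to 1.17 in fed control worms and 0.95 to 1.82 in fed Rheb RNAi worms on the log2 scale, and the other groups lay between 0.91 and 1.48. No array duplicated another.

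Fasting of control worms raised 25 of the 47 genes and lowered 1, cox-18, by a median over all 47 of 0.34, or 26.4%. Of all 12277 genes, limma called 18.9%: 11% were higher and 7.91% lower, with a median change of 0.04. The change was above 0 for 42 of the 47 genes and was spread over all complexes. Fasted arrays lay above all fed arrays for 23 genes, or 48.9%, of which 21 were called, and below them for cox-18, 2.13%, against 6.6% and 5.87% of all genes. Taken by replicate number, which the arrays of one number share as a common deviation, 39 genes were higher in fasted worms in all 5 pairs, against 25.2% of all genes, and sdha-2 and cox-18 were lower in all 5, against 18.5%. With the replicate number as a block 34 genes were higher and 1 lower, against 31.6% of all genes called in that fit: the 26 calls were kept, and nduf-5, sdhb-1, ucr-2.3, cox-5A, cox-5B, cox-6B, cox-19, asb-1 and hpo-18 were added as higher. The second probe sets that 16 of the genes have told the same: all 18 of them changed in the direction of the first, 10 were called, and their median change was 0.35. In the other comparisons the direction was shared by 18 for fasting on TOR RNAi and for Rheb RNAi in fed worms. It was shared by 16 and 17 for TOR RNAi in fed and fasted worms, 15 for fasting on Rheb RNAi and 13 for Rheb RNAi in fasted worms.

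In complex I, the NADH dehydrogenase, 7 of 13 genes rose, with a median over the 13 of 0.31. nuo-1 encodes the subunit that takes electrons from NADH. Its fed control arrays read 10.54, 10.51, 10.61, 10.60 and 10.66, and its fasted control arrays 11.07, 11.15, 11.09, 11.04 and 11.04. Every fasted array lay above every fed array, and the change was 0.49 ± 0.08, or 1.41-fold (limma's adjusted p = 0.00013). gas-1, a core subunit next to the coenzyme Q site, read 10.41, 10.19, 10.14, 10.44 and 10.29 in fed and 10.87, 10.63, 10.88, 10.79 and 10.72 in fasted control worms. It too separated completely, by 0.48 ± 0.10 (adjusted p = 0.0017). Its paralog nduf-2.2 did not follow: it read 9.32, 9.47, 9.41, 10.13 and 9.74 in fed and 9.26, 9.65, 9.49, 9.95 and 9.61 in fasted control worms, a change of -0.02 ± 0.18. The other risers were nduf-7, nduf-11, nduf-9, nuo-2 and lpd-5, at 0.31 to 0.48, of which nduf-7, nduf-11 and lpd-5 overlapped between the groups. nuo-6 was at 0.23 ± 0.17 and nuo-5 at 0.15 ± 0.26, neither called.

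Complex II, succinate dehydrogenase, is shared with the citric acid cycle. 2 of its 5 genes rose, both anchors of the complex in the membrane. mev-1, the large cytochrome b subunit, read 11.28, 10.97, 10.87, 11.03 and 10.78 in fed and 11.68, 11.67, 11.37, 11.47 and 11.58 in fasted control worms, without overlap, a rise of 0.57 ± 0.12 or 1.48-fold (adjusted p = 0.0016). sdhd-1, the small membrane subunit, rose by 0.40 ± 0.09. The iron-sulfur gene sdhb-1 was at 0.28 ± 0.14 and called only with the block (adjusted p = 0.0094).

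The flavoprotein gene sdha-1 varied more among replicates than with feeding. Its fed control arrays read 10.39, 10.07, 8.87, 8.59 and 9.05 for replicates 1 to 5, and its fasted control arrays 10.95, 10.09, 9.28, 9.27 and 9.43. Replicates 1 and 2 were high in both states, as they were on Rheb RNAi, where the 4 fed arrays read 10.25, 9.94, 9.61 and 8.74 and the 4 fasted arrays 10.72, 10.21, 9.65 and 8.97. All 6 TOR RNAi arrays were low, at 8.88, 8.38 and 8.82 in fed and 8.90, 8.64 and 9.29 in fasted worms. The fasting change of 0.41 ± 0.38 on control RNAi was not called, although the fasted array was the higher in all 5 pairs, by 0.02 to 0.68. The second flavoprotein gene, sdha-2, was at -0.23 ± 0.13 and was lower in all 5 pairs, without a call.

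Complex III, which hands electrons from coenzyme Q to cytochrome c, had 5 of 6 genes higher and the largest median of the complexes, 0.48. isp-1, the Rieske iron-sulfur protein, read 12.76, 12.45, 12.69, 12.57 and 12.58 in fed and 13.09, 13.12, 13.10, 13.11 and 13.11 in fasted control worms. The fasted values were nearly alike and all higher, by 0.50 ± 0.10 (adjusted p = 0.00059). ucr-2.2, a core protein, read 9.24, 8.96, 8.80, 9.10 and 8.87 in fed and 9.81, 9.62, 9.46, 9.55 and 9.62 in fasted control worms, a rise of 0.62 ± 0.11 or 1.53-fold. Its paralog ucr-2.1 rose by 0.68 ± 0.17 with overlapping groups, the core protein ucr-1 by 0.42 ± 0.12 and cyc-1, cytochrome c1, by 0.47 ± 0.11. The third paralog, ucr-2.3, was at 0.34 ± 0.15 and called only with the block (adjusted p = 0.015). It read 10.18, 10.21, 9.92, 10.26 and 9.93 in fed and 10.40, 10.88, 10.13, 10.28 and 10.49 in fasted control worms. cyc-2.1, the cytochrome c that carries electrons on to complex IV, rose by 0.33 ± 0.10 without overlap, and this call was lost without fed control replicate 3 or fasted control replicate 5, at 0.29 in both.

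In complex IV, cytochrome c oxidase, 4 of 7 nuclear subunits rose, cox-7C, cox-6C, cox-4 and cox-6A, and the other 3 were at 0.24 to 0.33 with adjusted p = 0.055 to 0.061. These 3 were cox-5A, cox-5B and cox-6B, and with the block each was called, at adjusted p = 0.008 to 0.023. cox-7C read 12.92, 13.01, 12.75, 12.95 and 13.02 in fed and 13.39, 13.34, 13.27, 13.34 and 13.40 in fasted control worms. All fasted arrays were above all fed ones, by 0.42 ± 0.09 (adjusted p = 0.0013). cox-4 rose by 0.35 ± 0.10 and lost its call without fed control replicate 3 or fasted control replicate 5, at 0.29 to 0.32.

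None of the 5 tested assembly factors rose without the block, and their median was -0.02. cox-18, which inserts a subunit into the inner membrane, read 6.72, 6.88, 6.68, 7.29 and 6.97 in fed and 6.50, 6.25, 6.62, 6.43 and 6.40 in fasted control worms. All fasted arrays were lower, and cox-18 fell by 0.47 ± 0.15 (adjusted p = 0.032), but leaving out any 1 of 6 control arrays, fed replicates 2, 4 and 5 or fasted replicates 2, 4 and 5, ended the call at -0.47 to -0.37. cox-11, which delivers copper, was at -0.17 ± 0.15, the copper chaperones cox-17 and cox-19 at -0.02 ± 0.20 and 0.39 ± 0.22, and cox-15, of heme synthesis, at 0.05 ± 0.16. None of these 4 was called, and with the block cox-19 was (adjusted p = 0.011).

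In ATP synthase 6 of 10 genes rose and all 10 were above 0, with a median of 0.39. asb-2, the b subunit of the stalk, read 9.24, 8.89, 8.62, 8.35 and 8.72 in fed and 9.92, 9.57, 9.44, 9.25 and 9.50 in fasted control worms. Its change of 0.77 ± 0.22, or 1.71-fold (adjusted p = 0.015), was the largest among the 47 genes, and its fasted arrays all lay above its fed arrays. The paralogous b subunit asb-1, known as the germline form, read 11.44, 11.38, 11.20, 11.51 and 11.24 in fed and 11.65, 11.79, 11.49, 11.65 and 11.59 in fasted control worms, a change of 0.28 ± 0.12 that was called only with the block (adjusted p = 0.015). atp-4, a coupling factor, read 12.01, 12.07, 11.68, 12.10 and 11.95 in fed and 12.57, 12.60, 12.32, 12.51 and 12.61 in fasted control worms. It rose by 0.56 ± 0.10 without overlap (adjusted p = 0.0002). asg-2, the g subunit, read 10.48, 10.27, 10.09, 10.55 and 10.56 in fed and 11.20, 10.57, 10.92, 10.99 and 11.07 in fasted control worms, a rise of 0.56 ± 0.14. atp-3, the stalk protein that ties the head to the membrane part, rose by 0.54 ± 0.09, atp-5 by 0.38 ± 0.10 and the beta subunit atp-2 by 0.39 ± 0.12, a call lost without fed control replicate 3, 4 or 5 or fasted control replicate 1 or 2, at 0.34 to 0.38. asg-1 at 0.22 ± 0.11, hpo-18 at 0.32 ± 0.14 and the alpha subunit atp-1 at 0.40 ± 0.22 were not called, and with the block hpo-18 was (adjusted p = 0.0049).

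Markers of tissues were read in the same comparison, where 11% of all genes were higher and 7.91% lower. Of 10 body wall muscle genes 1 was higher and 2 were lower in fasted control worms, of 12 germline genes 2 were lower, of 7 intestine genes 2 were lower, and of 10 neuron genes 2 were higher. The summed intensity of the muscle genes was 8626 to 14867 in fed and 7356 to 12991 in fasted control worms, and that of the germline genes was 19742 to 23510 and 16671 to 21253. Their part in the result was not tested. With every array centred on its median, 12 genes rose and 1 fell, against 17.5% of all genes called, while the median of the 47 genes stayed 0.30 above that of all genes, as it was without centring.

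On Rheb RNAi, limma called none of the 47 genes for fasting, while 11.9% of all genes were called, 3.23% higher and 8.67% lower. At an unadjusted p under 0.05 there were 5 of the 47, against 3139 of all 12277 genes. Of the 47 changes 42 were above 0, as were 61.7% over all genes, with a median of 0.13 against 0.09 for all genes. Fed and fasted arrays did not overlap for 2 genes, nuo-1 and atp-4, or 4.26%, against 6.5% of all genes, and for none in the other direction, against 8.14%. In all 4 same-numbered pairs 27 genes were higher in the fasted array and 2 lower, against 31.3% and 18% of all genes. nuo-1 read 10.93, 11.09, 11.01 and 11.01 in fed and 11.28, 11.17, 11.27 and 11.30 in fasted Rheb RNAi worms, a change of 0.25 ± 0.09 (adjusted p = 0.09). The fed values overlapped those of fasted control worms. atp-4 read 12.34, 12.32, 12.45 and 12.56 in fed and 12.62, 12.58, 12.61 and 12.70 in fasted worms, at 0.21 ± 0.11. With the replicate number as a block, 5 of the 47 genes were called, against 24.1% of all genes. nuo-1, sdhb-1, ucr-2.3 and asb-1 rose by 0.25 to 0.45, and nduf-5 fell by 0.42.

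Tissue markers shifted with fasting on Rheb RNAi as well: 7 of 10 body wall muscle genes and 4 of 7 intestine genes were lower. None was higher, where 8.67% of all genes were lower and 3.23% higher. The muscle sum was 20333 to 31459 in fed and 11143 to 14901 in fasted Rheb RNAi worms. On TOR RNAi 1 muscle gene and 5 intestine genes were lower with fasting, against 5.16% of all genes. The intestine sum was 9073 to 12518 in fed and 5226 to 6690 in fasted TOR RNAi worms. On neither RNAi was any of the 12 germline genes called, against 11.9% of all genes on Rheb RNAi and 6.24% on TOR RNAi. The part of these tissues in the fasting values of the respiratory genes was not tested.

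On TOR RNAi no gene was called either, against 6.24% of all genes, 1.08% higher and 5.16% lower, and 5 genes had an unadjusted p under 0.05, against 1805 of all 12277. All 47 changes were above 0, as were 62.4% of all genes, with a median of 0.21 against 0.08. Here 18 genes, 38.3%, separated fasted from fed arrays, against 12.6% of all genes with 3 arrays on each side, and none separated in the other direction, against 10.8%. In all 3 same-numbered pairs 34 genes were higher and 0 lower, against 33.6% and 18.7% of all genes. isp-1 read 13.03, 13.14 and 13.06 in fed and 13.24, 13.30 and 13.23 in fasted TOR RNAi worms, at 0.17 ± 0.12, and gas-1 read 10.20, 10.16 and 10.20 in fed and 10.31, 10.44 and 10.53 in fasted worms, at 0.24 ± 0.13. Neither was called. With the replicate number as a block 1 of the 47 genes was called, against 10.6% of all genes: ucr-2.3, which rose by 0.48 (adjusted p = 0.021).

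The difference between the fasting responses was tested directly as an interaction. Against control RNAi, the response on Rheb RNAi was lower for 2 genes, asg-2 and nduf-5, where 4.89% of all genes were called, 1.07% higher and 3.82% lower. The difference was below 0 for 39 of the 47 genes, with a median of -0.23 against 0.02 for all genes. asg-2 read 11.18, 11.03, 11.57 and 11.33 in fed and 10.88, 10.86, 11.31 and 11.21 in fasted Rheb RNAi worms, so that the response was -0.21 there and 0.56 on control RNAi. The difference was -0.77 ± 0.21 (limma's adjusted p = 0.033). nduf-5, an accessory subunit of complex I, read 11.78, 11.62, 11.74, 12.06 and 12.11 in fed and 12.11, 12.13, 12.12, 12.27 and 12.21 in fasted control worms. On Rheb RNAi it read 12.49, 12.08, 12.76 and 12.63 in fed and 11.80, 11.92, 12.27 and 12.30 in fasted worms, with 2 of the 4 fasted arrays below all fed ones, and the difference was -0.72 ± 0.20 (adjusted p = 0.033). Of the 18 arrays compared there were 10 whose removal, 1 at a time, ended the call, at -0.78 to -0.67 for asg-2 and, for a set of 10 that differed in part, at -0.72 to -0.63 for nduf-5. Both calls also ended when Rheb RNAi replicate 3 was left out fed and fasted, the pair with the top 3' to middle ratios, at -0.75 and -0.70, and after centring arrays on their medians, where 1 gene was higher and 0 lower, against 4.9% of all genes called. With the replicate block 8 of the 47 genes were called, against 11.5% of all genes: asg-2, nduf-5, gas-1, mev-1, ucr-2.2 and asb-2 were lower, at -0.80 to -0.45, and sdha-2 and cox-18 higher, at 0.51 and 0.70.

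For TOR RNAi against control the interaction called none of the 47 genes, against 2.44% of all genes, 0.7% higher and 1.74% lower, and 6 had an unadjusted p under 0.05, against 1419 of all 12277. The median difference was -0.15 against 0.003 for all genes, with 39 genes below 0, against 6102 of all 12277. After centring arrays on their medians it was -0.02 against 0.13 for all genes, and relative to all genes it stayed at -0.15. With the replicate block 1 gene was called, sdha-2, at 0.63, against 5.86% of all genes. Between the responses on TOR and Rheb RNAi no gene was called, against 0.318% of all genes, 2 had an unadjusted p under 0.05, against 533 of all 12277, and the median difference was 0.07.

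**Figure D2:**
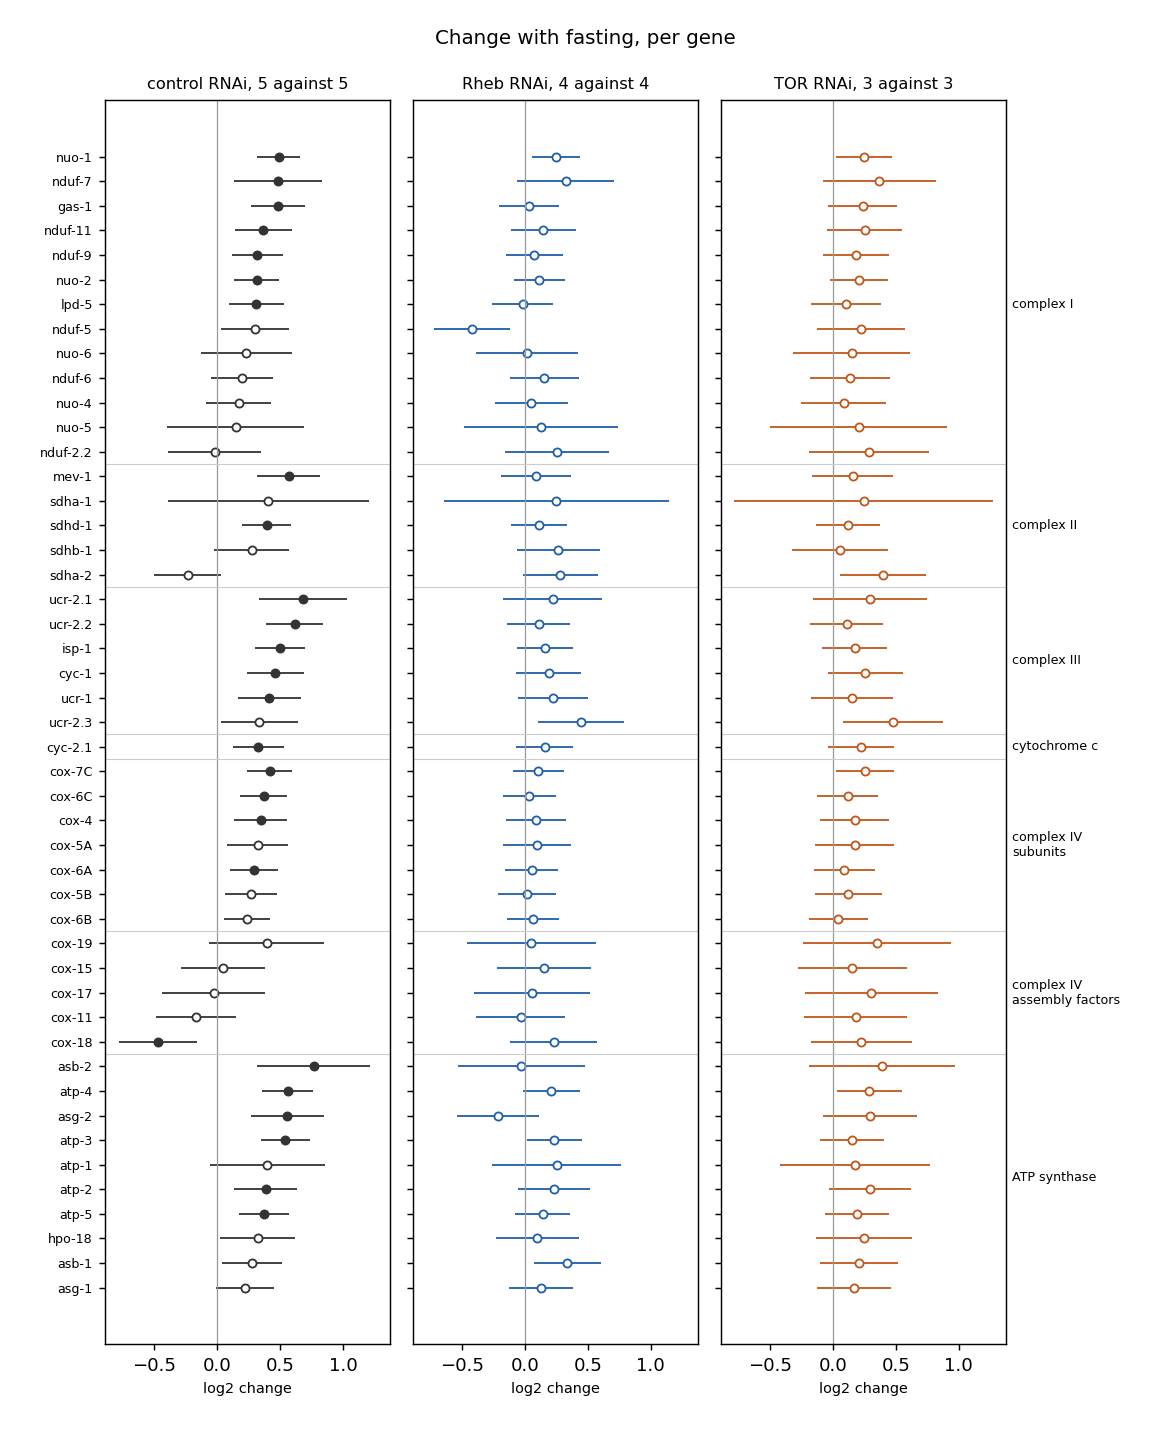
Points are log2 changes of fasted against fed worms for 47 genes grouped by complex, with 95% confidence intervals from limma, on control, Rheb and TOR RNAi. Filled points passed an adjusted p under 0.05: 26 on control RNAi, 25 to the right of 0 and cox-18 to the left, and 0 on each knockdown.

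In fed worms Rheb RNAi was compared with the same fed control arrays that the fasting comparison used, so the results that follow share those arrays with it. Rheb RNAi raised 23 of the 47 genes and lowered 1, with a median of 0.33 against 0.02 for all genes. limma called 33.1% of all genes, 19.2% higher and 13.9% lower. Groups did not overlap for 19 rising genes, 40.4%, against 13.1% of all genes, and for none in the other direction, against 8.99%. With the replicate block 32 genes were higher and 3 lower, against 47.1% of all genes called in that fit. By complex, without the block, 8 of 13 genes rose in complex I, 2 of 5 in complex II, 3 of 6 in complex III, cyc-2.1 of cytochrome c, 4 of 7 subunits of complex IV and 5 of 10 genes of ATP synthase. asg-2 had the largest rise, 0.89 ± 0.15 (adjusted p = 9.8e-05), followed by nduf-5 at 0.63 ± 0.14, isp-1 at 0.59 ± 0.10 and mev-1 at 0.58 ± 0.13. isp-1 read 13.05, 13.13, 13.45 and 13.17 in fed Rheb RNAi worms and mev-1 read 11.44, 11.67, 11.42 and 11.72, all above the fed control arrays. asg-2 was above all 5 of them as well, while nduf-5 overlapped them at its lowest array.

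The NADH-binding subunit nuo-1 rose by 0.42 ± 0.09 on Rheb RNAi in fed worms, nuo-4 by 0.48 ± 0.13 and cyc-1 by 0.44 ± 0.12. In complex IV cox-6C rose by 0.41 ± 0.10 and cox-7C by 0.33 ± 0.09, and in ATP synthase atp-4 by 0.46 ± 0.10 and atp-3 by 0.41 ± 0.10. gas-1 rose by 0.29 ± 0.11 with overlapping groups, and there were 9 arrays whose removal ended that call, at 0.24 to 0.30. Of the genes named for fasting on control RNAi, asb-2 was at 0.55 ± 0.23, ucr-2.1 at 0.39 ± 0.18 and atp-2 at 0.11 ± 0.13, none called, and sdha-2 was at -0.33 ± 0.13. With the block asb-2 and ucr-2.1 were higher and sdha-2 lower (adjusted p = 0.022, 0.046 and 0.027), and ucr-2.3, nuo-6, asg-1 and hpo-18, uncalled otherwise, were higher as well. cox-18 read 6.05, 6.45, 6.28 and 6.78 and fell by 0.52 ± 0.16 with overlapping groups (adjusted p = 0.015), and without fed Rheb RNAi replicate 1 it was at -0.40 and not called.

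TOR RNAi in fed worms raised 20 genes and lowered 2, with a median of 0.29 against 0.04 for all genes. limma called 33.3% of all genes, 19.9% higher and 13.4% lower. Groups did not overlap for 23 higher and 1 lower gene, 48.9% and 2.13%, against 20.7% and 16.3% of all genes. The count depended on single arrays of the group of 3: 13 genes were called without replicate 2 of fed TOR RNAi and 10 without replicate 3. The shares of all genes called in these 2 fits are not given here, so a general loss of calls cannot be told apart. In ATP synthase 7 of 10 genes rose, among them atp-3 by 0.55 ± 0.11 (adjusted p = 0.00057) and asb-1 by 0.55 ± 0.13. asb-1 read 11.87, 12.05 and 11.79, above all 5 fed control arrays. In complex I, nuo-4 rose by 0.59 ± 0.14, nduf-7 by 0.65 ± 0.19, nduf-5 by 0.48 ± 0.15 and nuo-1 by 0.30 ± 0.10. isp-1 and ucr-2.3 of complex III rose by 0.47 ± 0.11 and 0.51 ± 0.17, cyc-2.1 by 0.41 ± 0.11, and 4 of 7 subunits of complex IV by 0.29 to 0.43.

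In complex II none of the 5 genes was called on TOR RNAi in fed worms, and their median was -0.11, with mev-1 at 0.29 ± 0.14, sdhb-1 at -0.11 ± 0.16, sdha-2 at -0.30 ± 0.15 and sdha-1 at -0.70 ± 0.44. gas-1 was at -0.11 ± 0.12, ucr-2.2 at 0.05 ± 0.13 and asb-2 at -0.16 ± 0.25, none called. The falls were of nuo-5, the large iron-sulfur subunit of complex I, by 0.80 ± 0.30 (adjusted p = 0.045), and of the assembly factor cox-15, by 0.54 ± 0.19 (adjusted p = 0.029). nuo-5 ranged from 9.36 to 10.14 in fed control and from 8.77 to 9.32 in fed TOR RNAi worms, without overlap, and there were 7 arrays whose removal ended its call, at -0.82 to -0.71. That of cox-15 ended without fed control replicate 2 or 4 or fed TOR RNAi replicate 3, at -0.52 to -0.35. On Rheb RNAi nuo-5 was at -0.58 ± 0.28 and not called, but called with the replicate block at -0.62, and its dimmer probe set fell by 0.96 ± 0.28 (adjusted p = 0.012). On TOR RNAi in fed worms cox-11 rose by 0.46 ± 0.18 with overlapping groups. Removal of any of 18 arrays ended the call, at 0.34 to 0.53.

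The split of the calls in fed worms depended on the scaling. Centring every array on its median moved the median of all genes from 0.02 to -0.15 for Rheb RNAi and from 0.04 to -0.16 for TOR RNAi. On that scale 5 of the 47 genes were higher and 3 lower on Rheb RNAi, against 36.1% of all genes called, and 2 were higher and 3 lower on TOR RNAi, against 37.3%. Relative to all genes, the median of the 47 was 0.31 higher on Rheb RNAi without centring and 0.32 with it, and on TOR RNAi 0.25 and 0.26. asg-2 and nduf-5 kept their calls on Rheb RNAi under both scalings, at 0.72 and 0.46 after centring.

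Tissue markers moved in the same comparisons. Over all genes 19.2% were higher and 13.9% lower on Rheb RNAi, and 19.9% and 13.4% on TOR RNAi. In fed Rheb RNAi worms 9 of 10 body wall muscle genes were higher, with a summed intensity of 20333 to 31459 against 8626 to 14867 in fed control worms. In fed TOR RNAi worms 1 of 10 was higher, with a sum of 9909 to 18549. Of 12 germline genes 7 were lower on each knockdown, with sums of 14556 to 20106 on Rheb RNAi and 14377 to 16745 on TOR RNAi against 19742 to 23510 in fed control worms. Of 10 neuron genes 6 were higher on each, with sums of 7700 to 8689 and 7724 to 8978 against 5509 to 6685. Of 7 intestine genes 2 were higher and 1 was lower on each. The 5 sperm genes on the array summed to 43.5 to 55.1 over all groups, close to the floor. The part of these tissues in the changes of respiratory genes was not tested.

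In fasted worms Rheb RNAi raised 2 of the 47 genes, asb-1 and ucr-2.3, and lowered none, where 19.6% of all genes were called, 10.5% higher and 9.04% lower. The median was 0.08 against 0.06 for all genes. Groups did not overlap for 3 genes, nuo-1, nuo-4 and isp-1, or 6.38%, against 7.67% of all genes, and for none in the other direction, against 7.19%. asb-1 lay between 11.76 and 12.23 on Rheb RNAi and 11.49 to 11.79 in fasted control worms, a rise of 0.42 ± 0.12 (adjusted p = 0.018) with a small overlap, and the call was lost without fasted control replicate 3 or Rheb RNAi replicate 1 or 4, at 0.36 to 0.38. ucr-2.3 was at 0.44 ± 0.16 with an adjusted p of 0.05, and removal of any of 21 arrays ended its call, at 0.37 to 0.46. With the replicate block 8 of the 47 genes were called, against 34.9% of all genes: nuo-4, nuo-6, nduf-2.2, nduf-7, ucr-2.3, isp-1 and asb-1 rose by 0.25 to 0.43, and nuo-5 fell by 0.64.

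TOR RNAi in fasted worms raised 7 genes and lowered 2, where 25.2% of all genes were called, 14.9% higher and 10.2% lower. The median was 0.14 against 0.03. Groups did not overlap for 13 higher and 4 lower genes, 27.7% and 8.51%, against 14.8% and 11.1% of all genes. The 7 were nuo-4, nduf-2.2 and nduf-7 of complex I, ucr-2.3 of complex III, the assembly factor cox-11, and asb-1 and hpo-18, the epsilon subunit, of ATP synthase. cox-11 read 9.27, 9.75 and 9.09 on TOR RNAi and 8.63, 8.45, 8.43, 8.74 and 8.54 on control RNAi, a rise of 0.81 ± 0.18 without overlap (adjusted p = 0.0021). ucr-2.3 read 11.13, 11.18 and 10.94, above the 5 fasted control arrays, and rose by 0.65 ± 0.17 (adjusted p = 0.0081). nduf-2.2 read 10.12, 10.64 and 10.34 and rose by 0.77 ± 0.21 (adjusted p = 0.0086), again without overlap.

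The 2 genes that fell have a paralog among the 7 that rose. gas-1, paralog of nduf-2.2, fell by 0.35 ± 0.12 (adjusted p = 0.033). ucr-2.2, paralog of ucr-2.3, read 9.25, 8.90 and 9.31 and fell by 0.46 ± 0.13 (adjusted p = 0.011). Both lay below every fasted control array. The calls of nduf-2.2, asb-1 and ucr-2.2 were each lost without fasted TOR RNAi replicate 2, at 0.64, 0.40 and -0.33. The count was then 3 of 47, and the share of all genes called in that fit is not given here. For nduf-7, hpo-18 and gas-1 there were 15, 16 and 5 arrays whose removal ended the call.

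In the same fasted worms 5 of 11 embryo genes were higher on Rheb RNAi and 4 on TOR RNAi. So were 3 of 10 neuron genes on each, and 2 of 10 and 0 of 10 muscle genes, while 2 of 7 intestine genes were lower on each. Over all genes 10.5% were higher and 9.04% lower on Rheb RNAi, and 14.9% and 10.2% on TOR RNAi. The embryo sum was 5216 to 6802 on control, 5646 to 6652 on Rheb and 5060 to 6819 on TOR RNAi. The part of these tissues was not tested.

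**Figure D3:**
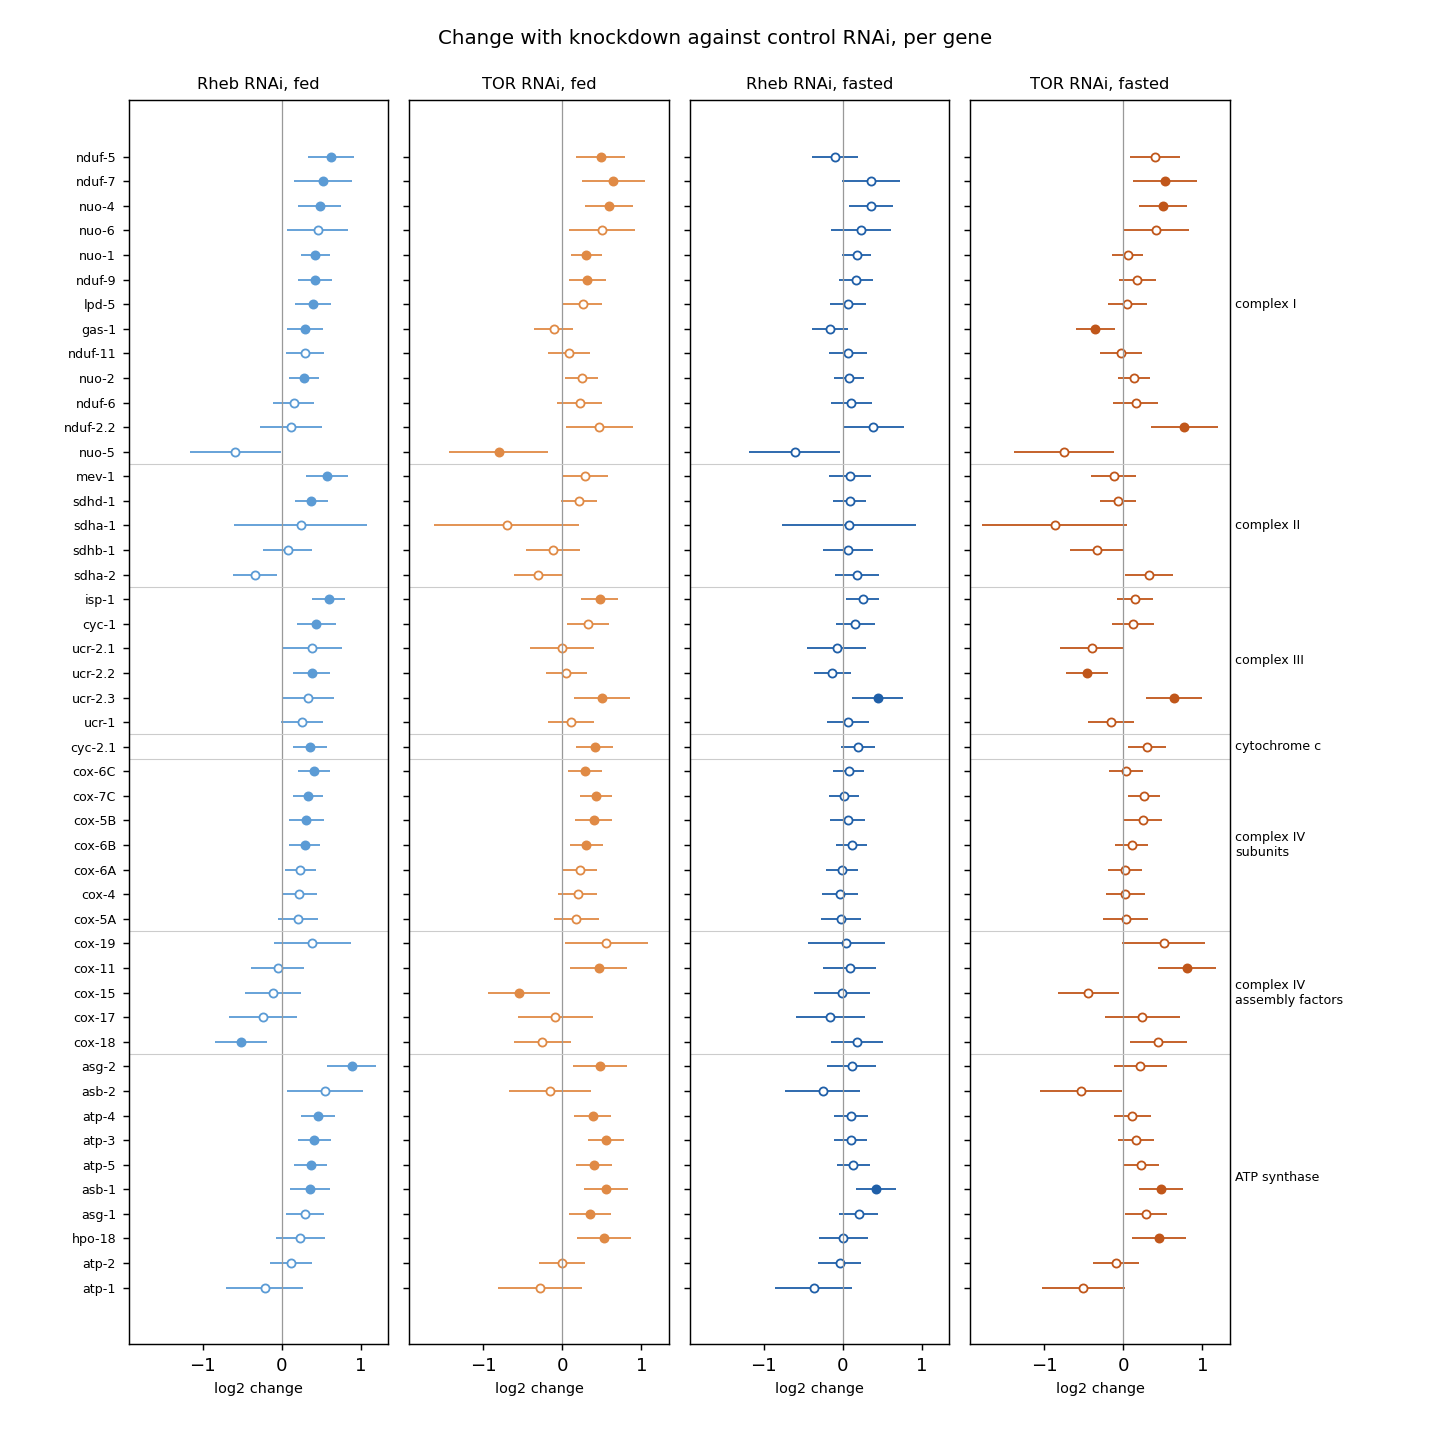
Points are log2 changes of Rheb or TOR RNAi against control RNAi for 47 genes grouped by complex, in fed worms (left panels) and fasted worms (right panels), with 95% confidence intervals from limma. Filled points passed an adjusted p under 0.05: 24 and 22 in fed worms on Rheb and TOR RNAi, and 2 and 9 in fasted worms.

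Several subunits are encoded by paralogous genes, and their balance within an array was compared as the difference of their log2 intensities. The 6 pairs were chosen with earlier results of these data known, the 3 ucr genes share ucr-2.3 between 2 pairs, and probe sets of near copies can share signal. The level of such a ratio has no meaning across probe sets, only its change does. Of 42 comparisons, 6 pairs in 7 contrasts, none passed a Benjamini-Hochberg adjustment, with a smallest adjusted p of 0.115, so the changes below are descriptions. The exact permutation test used here, two-sided by doubling the smaller tail, cannot give less than p = 0.0357 for 5 against 3 arrays.

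In fasted TOR RNAi against fasted control worms, 5 of the 6 ratios were lower without overlap, each with exact permutation p = 0.0357. The ratio of sdha-1 to sdha-2 was lower by 1.19 on the log2 scale, that of gas-1 to nduf-2.2 by 1.13, of ucr-2.2 to ucr-2.3 by 1.1, of ucr-2.1 to ucr-2.3 by 1.04 and of asb-2 to asb-1 by 1.01. The sdha-1 to sdha-2 ratio spread from 0.34 to 2.15 in fasted control worms, with a median of 0.44. Its highest fasted TOR RNAi array was at 0.20. The asg-2 to asg-1 ratio did not separate, at -0.08. In fed TOR RNAi worms these 5 ratios were at -0.40 to -0.71, and only that of ucr-2.2 to ucr-2.3 separated the arrays, at -0.46 (exact permutation p = 0.0357). In fasted Rheb RNAi worms gas-1 over nduf-2.2 was at -0.54 without overlap (exact permutation p = 0.0159, the smallest that 5 against 4 allow), and in fed Rheb RNAi worms asg-2 over asg-1 was at 0.59 without overlap (exact permutation p = 0.0159). Fasting on Rheb RNAi moved that ratio by -0.34 without overlap (exact permutation p = 0.0286, the smallest that 4 against 4 allow). Fasting of control worms gave ratios of 0.28 to 0.64, all 6 above 0 and all with overlap, with exact permutation p = 0.0238 for asb-2 over asb-1 and 0.0317 for gas-1 over nduf-2.2. These tests take the arrays as unpaired. On control RNAi the fasted array had the higher ratio in all 5 same-numbered pairs for asb-2 over asb-1, by 0.27 to 0.76, for gas-1 over nduf-2.2, by 0.25 to 0.65, and for sdha-1 over sdha-2, by 0.16 to 0.98. It did in 4 of 5 pairs for each of the other 3 ratios. On Rheb RNAi the fasted array had the lower ratio in all 4 pairs for asb-2 over asb-1, asg-2 over asg-1 and both ratios over ucr-2.3. On TOR RNAi it was lower in all 3 pairs for both ratios over ucr-2.3 and higher in all 3 for asb-2 over asb-1. The remaining ratios went both ways on these knockdowns.

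The partners of the asb and sdha pairs were also read singly. asb-2 read 9.04, 8.59 and 9.36 in fasted TOR RNAi worms and 9.25 to 9.92 in fasted control worms, while asb-1 read 12.15, 12.26 and 11.92 against 11.49 to 11.79. The stalk gene asb-2 was thus at -0.54 ± 0.25 (not called) while asb-1 rose by 0.48 ± 0.13. sdha-1 was at -0.86 ± 0.44 and sdha-2 at 0.33 ± 0.15, neither called. asb-1 is the form known from the germline. The summed intensity of the 12 germline genes in fasted TOR RNAi worms, 15495 to 19057, overlapped that in fasted control worms, 16671 to 21253. Of the 12 genes 0 were called, against 25.2% of all genes. What part germline RNA has in this ratio was not tested.

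**Figure D4:**
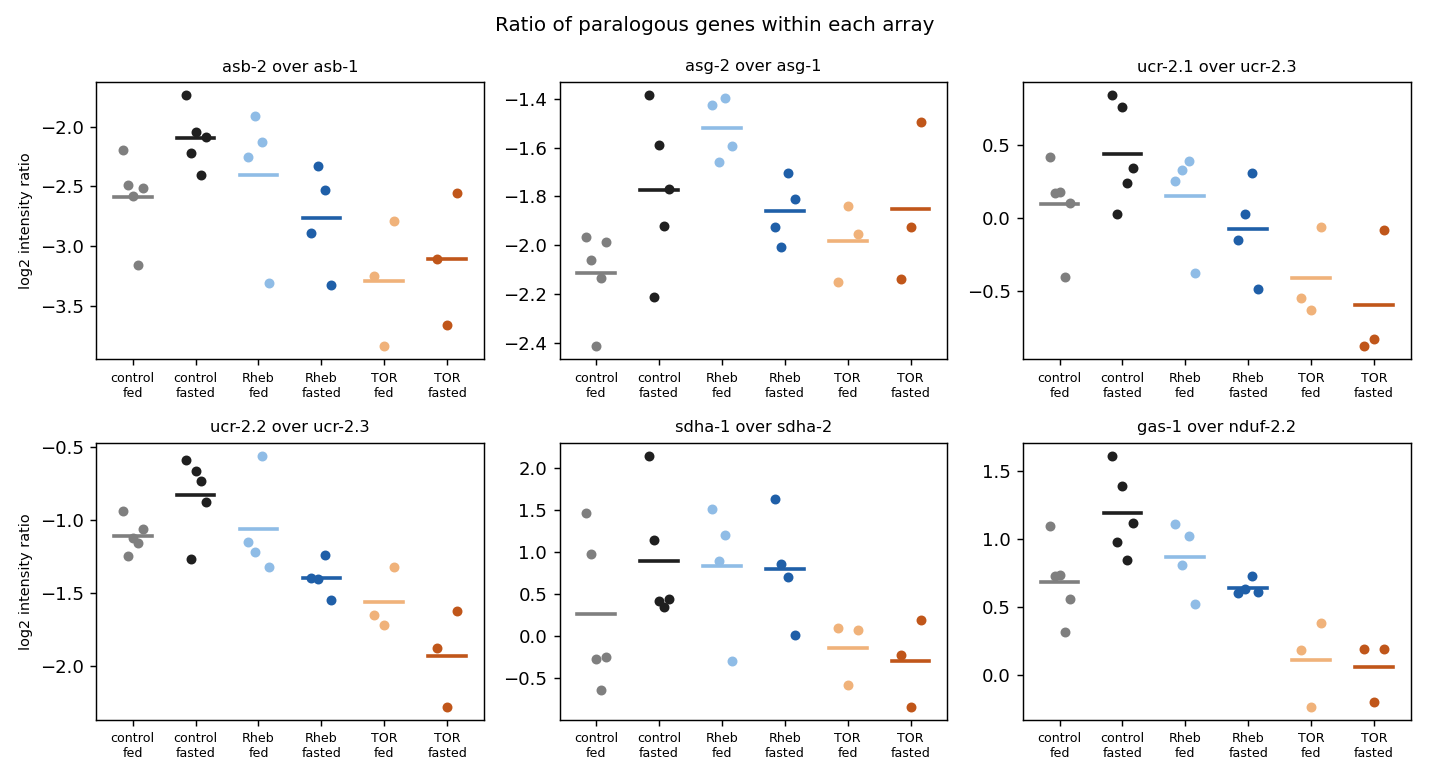
Each point is the log2 ratio of the intensities of 2 paralogous genes on 1 array, in 6 groups on the x axis, with group means as bars, and each panel has its own y range. In 5 of the 6 panels the 3 fasted TOR RNAi arrays lie below the 5 fasted control arrays; asg-2 over asg-1 is the exception.

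Genes of neighbouring mitochondrial functions were read beside the respiratory chain, from lists described by counts and medians only. In fasted control worms 6 of 19 citric acid cycle genes rose and none fell, with a median of 0.26. Over all genes 11% were higher and 7.91% lower, the shares to set beside the counts that follow. Of 57 mitochondrial ribosome genes 1 rose, with a median of 0.08, and of 74 cytosolic ribosome genes 1 rose, also with a median of 0.08. Of 7 coenzyme Q genes 2 rose, of 5 genes for ADP/ATP carriers and ATP synthase inhibitors 1, of 8 protein import genes 1, of 10 further assembly genes 0 and of 5 mitochondrial DNA upkeep genes 0; none of these fell.

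The mitochondrial ribosome had the highest median of the lists plotted on TOR RNAi in fasted worms, 0.41. There 26 of its 57 genes were higher and 0 lower, against 14.9% and 10.2% of all genes. The respiratory chain stood at 0.14 and the citric acid cycle at -0.17. In fed TOR RNAi worms 18 of the 57 were higher and 1 lower, against 19.9% and 13.4% of all genes, with a median of 0.26. On Rheb RNAi 10 were higher and 4 lower in fed worms, against 19.2% and 13.9% of all genes. In fasted worms 9 were higher and 1 lower, against 10.5% and 9.04%. The citric acid cycle had 3 of 19 genes higher and none lower in fed Rheb RNAi worms, with a median of 0.08. It had 3 higher and 1 lower in fed TOR RNAi worms, with a median of -0.01. The shares of all genes in these comparisons are those just given. The cytosolic ribosome stayed between -0.02 and 0.13 in its median in all 7 comparisons of groups, with 0 to 2 of 74 genes called. Over all genes 6.24% to 33.3% were called in these comparisons.

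**Figure D5:**
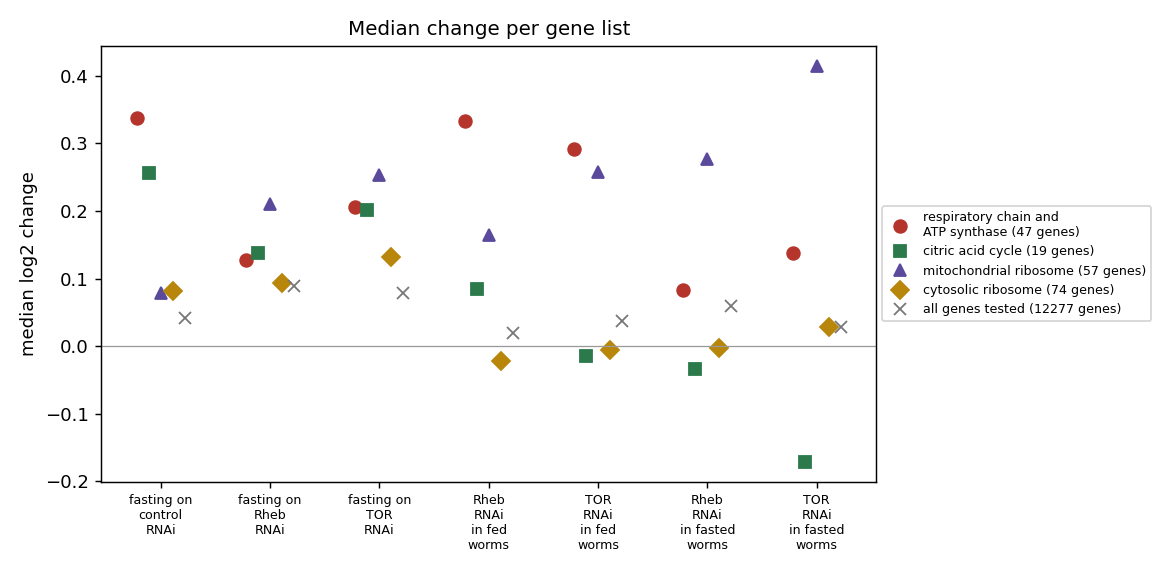
Each symbol is the median log2 change of a gene list in 1 of 7 comparisons: respiratory chain and ATP synthase, citric acid cycle, mitochondrial ribosome, cytosolic ribosome and all genes tested. The respiratory chain stands at 0.34 for fasting on control RNAi, 0.33 for Rheb RNAi and 0.29 for TOR RNAi in fed worms, with the mitochondrial ribosome at 0.16 and 0.26 in those 2, and at 0.14 for TOR RNAi in fasted worms, between the mitochondrial ribosome at 0.41 and the citric acid cycle at -0.17.

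After group means were removed, the correlation between 2 of the 47 genes over the 24 arrays, which share their hybridisation and scaling, had a median of 0.11 and ran from -0.84 to 0.91, given as a description only. The spread within groups was largest for sdha-1, with a pooled SD of 0.62, and for nuo-5, with 0.45. atp-1, the alpha subunit, ranged from 11.85 to 12.63 in fed and from 12.42 to 12.86 in fasted control worms, and its fasted array was the higher in all 5 same-numbered pairs, by 0.10 to 0.75, although the change of 0.40 ± 0.22 was not called.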

How the data were processed

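The 24 arrays of whole worms were analysed as deposited: probe set intensities on a linear scale, made by the authors with GCRMA, per the submitters' processing notes, a method that corrects for background and scales the arrays to each other, so that a shift common to all transcripts may not be seen. The series' design text names GeneSpring GX 7.3.1. The genome build and probe sequences are not given in the sources used here, and no sequences or coordinates are printed. All values were then log2-transformed. The array holds 22625 probe sets, of which 77 are controls, 20766 name 1 gene, 887 several and 895 none. Genes are named through GEO's platform annotation, which can be old. Each gene was read by its probe set of highest mean, and genes above log2 4 on at least 3 arrays were tested.

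limma 3.58.1 (R 4.3.3) estimated the 6 group means from all arrays together, and 10 comparisons were adjusted by the Benjamini-Hochberg method over all 12277 genes. The scripts were tested on simulated data. Paralog ratios had exact permutation tests. The members, the lists and the genes named (fixed anchor genes, the smallest p and the extreme changes per complex, called genes, and paralogs) were chosen with earlier results of these data known. Genes outside these rules are named where they complete a count, and were chosen after their values were seen.

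Same-numbered arrays deviated together from their group means over all genes, with correlations of 0.51 to 0.60 for fed and fasted control RNAi, 0.44 to 0.73 for Rheb, 0.50 to 0.57 for TOR, 0.45 to 0.66 between fed Rheb and control and 0.23 to 0.52 between fasted Rheb and control, but -0.19 to 0.24 and -0.08 to 0.14 between TOR and control. The number therefore pairs arrays in all comparisons except those of TOR with control; the pairing comes from these correlations, since the labels only number the replicates. Alternatives were the block, variance models, scalings, filters, choices of probe set, fits of the groups compared alone, and leaving out each array.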

Additional observations from a re-analysis of the deposited data

Results flagged for a closer look

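Among 68 checks of a single array against the others of its group, over the genes whose values are printed per array, 3 stood apart by Dixon's test, where chance gives about 1 in 20. nduf-2.2 on fasted Rheb RNAi replicate 4 read 10.3, with the nearest of the others at 9.89. ucr-2.3 on fed Rheb RNAi replicate 3 read 10, with the nearest at 10.54. cox-11 on fed Rheb RNAi replicate 4 read 9.1, with the nearest at 8.57.

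The response to fasting differed between Rheb and control RNAi by the interaction test for nduf-5 (-0.72) and asg-2 (-0.77), both lower on Rheb RNAi, with the dependence on single arrays given above.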

How the results depend on the processing

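Of the values of named genes under the alternatives, 8480 kept their side of the threshold, 256 were no longer called and 142 became called. None was called in the opposite direction. Changes of sign among uncalled values were not counted, and those near 0 could change sign. Medians of the 47 genes moved beyond the spread in 8 of 356 cases and reversed in none. Counts of called genes changed by over 1.5 times as follows. With arrays centred on their medians there were 13 for fasting on control RNAi (26 otherwise), 8 for Rheb RNAi in fed (24) and 1 in fasted worms (2), 5 for TOR RNAi in fed worms (22) and 1 for the response on Rheb minus control RNAi (2). The shares of all genes called were 17.5%, 36.1%, 19.3%, 37.3% and 4.9% in that order. Without the probe sets that can match several transcripts 27 genes remained to be tested, and there were 12, 12 and 10 for fasting on control RNAi and for Rheb and TOR RNAi in fed worms, and 1 and 4 (9) for Rheb and TOR RNAi in fasted worms. Here the shares over all genes were 18.1%, 32.7%, 32.3%, 20.1% and 24.8%. Fits of the groups compared alone, with fewer arrays, gave 17, 14, 0 and 5 for fasting on control RNAi, Rheb RNAi in fed, Rheb RNAi in fasted and TOR RNAi in fasted worms, and 0 for the response on Rheb minus control RNAi. These fits called 15.5%, 27.7%, 15.6%, 20.4% and 4.2% of all genes. Variance models with a trend, with or without robust fitting, gave 1 for fasting on Rheb RNAi and 4 for Rheb RNAi in fasted worms, where no filter gave 1; the cause was not tested. Without Rheb RNAi replicate 3 fed and fasted, the pair with the top 3' to middle ratios and chosen after seeing the data, the response on Rheb minus control RNAi had 0. Over all genes 3.12% were then called.

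With the replicate number as a block, the pairing gave 5 for fasting on Rheb RNAi, 1 for fasting on TOR RNAi, 8 for Rheb RNAi in fasted worms, 8 for the response on Rheb minus control and 1 for TOR minus control RNAi. The block called 24.1%, 10.6%, 34.9%, 11.5% and 5.86% of all genes in these comparisons. With TOR numbers as blocks of their own, an alternative added after seeing the data, there were 7 for fasting on Rheb RNAi and 3 on TOR RNAi. There were 9 for Rheb minus control and 3 for TOR minus control RNAi. The shares of all genes were then 31.1%, 14.4%, 17.5% and 9.11%. For TOR RNAi in fasted worms, where the numbers do not pair the arrays, the block gave 27, against 48.5% of all genes. It changed no other count by over 1.5 times.

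Leaving out each array in turn gave 18 to 27 for fasting on control RNAi, 0 to 2 on Rheb and 0 on TOR RNAi, 20 to 28 and 10 to 23 for Rheb and TOR RNAi in fed worms, 0 to 2 and 3 to 12 in fasted worms, 0 to 3 for the response on Rheb minus control RNAi, and 0 for both other interactions. The shares of all genes called in these fits are not given here. The number of arrays limits the precision: changes of most genes are below 1.5-fold, and a missing call does not show that a gene was unchanged. Probe sets of paralogs can share signal.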
